A study of Rattus norvegicus with 18 samples.

Results

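The subject here is a group of 6 genes for voltage-gated potassium channel subunits in rat dorsal root ganglion (DRG), out of 26172 Ensembl genes listed in the deposited tables. They are Kcnd3 (ENSRNOG00000014686), Kcnab1 (ENSRNOG00000010422), Kcnc1 (ENSRNOG00000011380), Kcnc2 (ENSRNOG00000004077), Kcnip3 (ENSRNOG00000014152) and Kcnh7 (ENSRNOG00000007528). The genes were selected on their lower values in spinal nerve transection (SNT) libraries than in naive libraries of these same data. Their levels, the share left after SNT and the ratios between them are therefore given as a description, with no test. All animals were male Wistar rats. For SNT libraries the L5 ganglion was taken 7 days after transection of the L5 spinal nerve. Naive libraries came from the L5 ganglion of unoperated rats, so the effects of surgery and of transection cannot be told apart. Each of the 3 SNT and 3 naive libraries held poly(A) RNA of several pooled rats, and each was sequenced in 3 runs, named 50 M, 25 M and 17 M after their read depth. The 3 runs of a library are technical replicates, and n is 3 libraries per group throughout.

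The values are normalized counts, that is, reads on the exons of a gene divided by the DESeq size factor of the library. The libraries held 15000789 to 19031166 gene reads in the 50 M runs, 8319112 to 9951906 in the 25 M runs and 4968448 to 6154543 in the 17 M runs. SNT replicate 1 stood apart from the other SNT libraries. Over the 14089 genes whose mean at 50 M reached 20 normalized counts, the median absolute log2 difference from SNT 1 was 0.31 to 0.39 to the naive libraries, 0.31 to SNT 2 and 0.22 to SNT 3. Between SNT 2 and SNT 3 it was 0.17, and between these libraries and the naive libraries it was 0.47 to 0.64. Results for the potassium channel genes are accordingly given with and without SNT 1. Exon lengths of the genome build used by the authors were not used here, so levels are compared between libraries and not between genes.

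Voltage-gated potassium channels are tetramers that repolarise the membrane after an action potential, and in sensory neurons they limit repetitive firing. The pore subunits are assembled with auxiliary subunits that set their inactivation and their traffic to the membrane. Kcnd3 encodes the pore subunit Kv4.3, which carries transient A-type current. Kcnip3 encodes KChIP3, a calcium-binding protein that associates with Kv4 channels and is also known as calsenilin or DREAM. Kcnab1 encodes Kv-beta-1, a cytoplasmic subunit that gives Kv1 channels fast inactivation. Kcnc1 and Kcnc2 encode Kv3.1 and Kv3.2, fast delayed rectifiers known from neurons that fire at high rates. Kcnh7 encodes Erg3, a channel of the ether-a-go-go related family whose current opposes slow depolarisation.

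The promoters of the Kv3 pair and of Kcnh7 are shown because these genes lay at both ends of the order of loss described below. Each run is the 250 bases before the gene start in RefSeq, assembly GRCr8, read 5′ to 3′ on the strand of the gene. The coordinates belong to that assembly and not to the build of the read counts. Capitals mark matches, on either strand, to the GC box GGGCGG or to the CCAAT box CCAAT. Kcnc1 lies on chromosome 1, plus strand (chr1:106038997-106039246), Kcnc2 on chromosome 7, plus strand (chr7:49587364-49587613), and Kcnh7 on chromosome 3, minus strand (chr3:68230672-68230921).
Kcnc1: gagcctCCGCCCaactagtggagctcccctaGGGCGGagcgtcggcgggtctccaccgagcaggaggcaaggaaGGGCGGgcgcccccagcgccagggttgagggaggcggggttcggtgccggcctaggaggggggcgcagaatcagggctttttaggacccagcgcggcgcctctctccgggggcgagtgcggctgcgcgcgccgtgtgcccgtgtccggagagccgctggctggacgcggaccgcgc
Kcnc2: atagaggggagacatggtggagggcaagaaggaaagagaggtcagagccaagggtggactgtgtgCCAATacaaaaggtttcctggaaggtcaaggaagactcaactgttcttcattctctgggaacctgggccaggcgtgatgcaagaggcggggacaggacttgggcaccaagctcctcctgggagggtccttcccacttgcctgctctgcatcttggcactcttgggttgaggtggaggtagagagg
Kcnh7: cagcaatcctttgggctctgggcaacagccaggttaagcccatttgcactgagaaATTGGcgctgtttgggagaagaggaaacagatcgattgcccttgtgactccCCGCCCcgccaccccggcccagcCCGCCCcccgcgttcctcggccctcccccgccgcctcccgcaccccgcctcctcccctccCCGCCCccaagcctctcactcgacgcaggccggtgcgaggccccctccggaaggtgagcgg

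The Kv3 pair differed in the sequence before the start. The Kcnc1 window had a GC content of 74.4% with 30 CpG dinucleotides and 3 GC boxes, whereas the Kcnc2 window had a GC content of 56% with 2 CpG dinucleotides and no GC box. Over 33465 rat promoter windows the median GC content was 51.2% and the median number of CpG dinucleotides was 5, and 30.5% of windows held a GC box. The Kcnh7 window held 3 GC boxes and a CCAAT box, a motif found in 34% of windows, and had 20 CpG dinucleotides. Of the remaining genes, Kcnd3 (79.6% GC, 43 CpG dinucleotides) and Kcnip3 (58.4% GC, 6 CpG dinucleotides) each held 1 GC box, and Kcnab1 (56% GC, 7 CpG dinucleotides) held none. All 6 genes were found in the promoter table. The letters TATAAA (12.9% of all windows), TGACGTCA (1.59%), TGACTCA (4.05%), CACGTG (5.59%), TTCAGCACC (0.305%) and GGACAGCGC (0.338%) were not present in the window of any of the 6 genes. A second RefSeq start of Kcnc2, whose window overlaps the one shown, likewise held the CCAAT box alone. These matches describe the letters of the windows only.

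All 6 genes were lower in every SNT library than in every naive library in the runs of each depth, a pattern that their selection used. At 50 M, 31.3% of the 17930 genes tested were likewise lower in SNT with no overlap between the groups. The highest SNT value of a gene, always that of SNT 1, was 31.6% to 48.8% of its lowest naive value at 50 M. In a bulk tissue such as this, fewer neurons of a type and less RNA per neuron cannot be told apart.

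Among the A-type subunits, Kcnd3 had 696, 854 and 559 normalized counts in naive replicates 1 to 3, and 273, 64.1 and 57.6 in SNT replicates 1 to 3. Kcnip3, which encodes the Kv4 partner KChIP3, had 932, 1045 and 921 normalized counts in naive and 291, 67.3 and 82.1 in SNT libraries. The cytoplasmic subunit gene Kcnab1 had 5304, 5720.0 and 4930 normalized counts in naive and 1910.2, 414 and 575 in SNT libraries. In each of these genes SNT 2 and SNT 3 lay close together and SNT 1 lay between them and the naive libraries. The spread between naive libraries was widest relative to the mean for Kcnd3 (703 ± 148, SD, n = 3, or 21.03% of the mean) and narrower for Kcnip3 (966 ± 68.6, or 7.10%) and Kcnab1 (5318 ± 395, or 7.43%).

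Of the Kv3 subunits, Kcnc1 had 529, 609 and 459 normalized counts in naive replicates 1 to 3 and 187, 33.7 and 26.4 in SNT replicates 1 to 3. Kcnc2 had 593, 535 and 491 normalized counts in naive and 207, 108 and 104 in SNT libraries. In SNT 1 the Kv3 genes were lower to a like degree (35.2% of the naive mean for Kcnc1 and 38.4% for Kcnc2), whereas in SNT 2 and SNT 3 Kcnc1 was at 6.32% and 4.96% and Kcnc2 at 19.9% and 19.2%. The Erg subunit gene Kcnh7 had 2087, 2293 and 1665 normalized counts in naive and 625, 74.9 and 105 in SNT libraries. These low values rested on few reads. In the 50 M runs Kcnc1 had 31 reads in SNT 2 and 28 in SNT 3, against 479 to 606 in naive libraries, and in the 17 M run of SNT 2 it had 10.

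**Figure D1:**
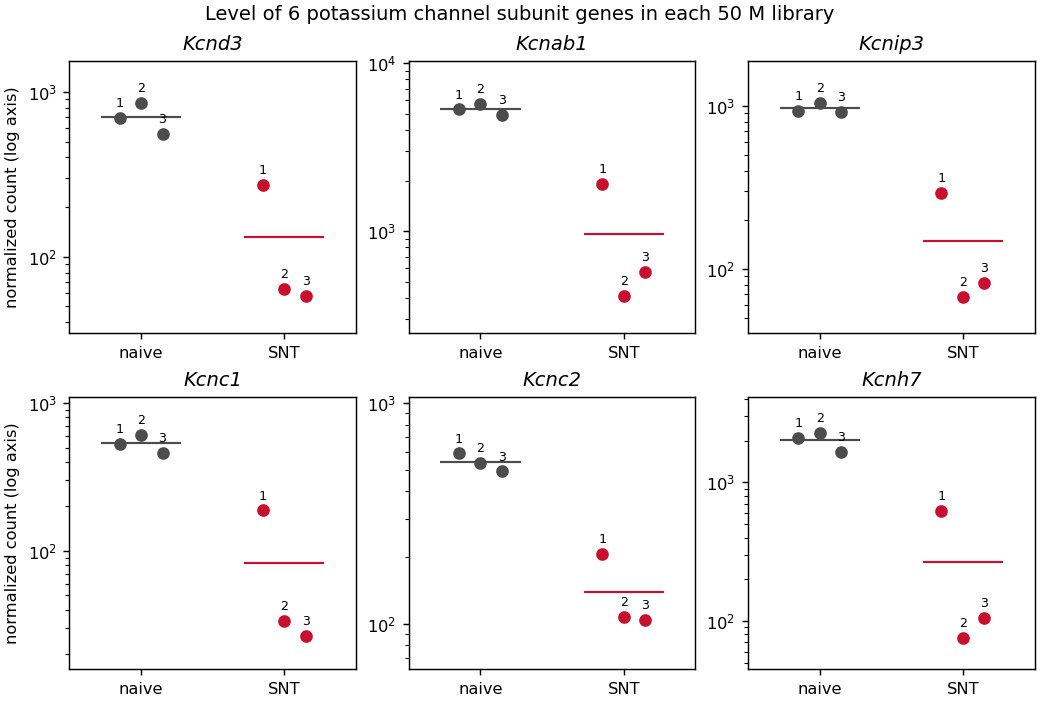
Normalized counts (log axis) of the 6 potassium channel subunit genes in the 50 M runs of the naive and SNT libraries, with the replicate number above each point and a line at the group mean. The 3 SNT points lie below the 3 naive points in every panel, and SNT 1 is the highest of the SNT points.

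The share of the naive level that was left in SNT differed between the genes. At 50 M the mean over the 3 SNT libraries was 13.3% ± 15.4 (SD) for Kcnh7, 15.2% ± 12.97 for Kcnip3, 15.5% ± 17.1 for Kcnc1, 18.2% ± 15.4 for Kcnab1, 18.7% ± 17.4 for Kcnd3 and 25.9% ± 10.9 for Kcnc2. SNT 1 was the highest of the 3 libraries for each gene and widened the SD. Without it, over the remaining 2 libraries, the share left was 4.46% for Kcnh7, 5.64% for Kcnc1, 7.74% for Kcnip3, 8.65% for Kcnd3, 9.30% for Kcnab1 and 19.6% for Kcnc2. Kcnh7 thus lost 95.5% and Kcnc2 80.4% of the naive level in SNT 2 and SNT 3. In terms of fold, the Erg subunit was 22.4-fold lower, the A-type subunits 10.8-fold to 12.9-fold lower, and the Kv3 subunits 17.7-fold (Kcnc1) and 5.10-fold (Kcnc2) lower than in naive libraries. The Kv3 pair therefore spanned almost the whole range, with the A-type genes between them.

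The order of loss was compared within each library, where all genes share the same scaling. The reads of the 3 runs were summed for this purpose, and an exact 95% Poisson interval was set on the count of the SNT library, which covers counting error only. In SNT 2, Kcnh7 retained 3.39% of the naive mean (2.80% to 4.06%, from 117 reads), below Kcnc1 at 5.47% (4.07% to 7.19%, 51 reads). Kcnip3 at 6.39%, Kcnd3 at 7.27% and Kcnab1 at 8.21% followed, each with an interval that overlapped that of its neighbour. Kcnc2 retained 18.1% (15.5% to 21.0%, 171 reads) in SNT 2 and stood clear of the gene next to it.

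In SNT 3 the order was Kcnc1 (5.32%), Kcnh7 (6.00%), Kcnip3 (7.73%), Kcnd3 (8.78%) and Kcnab1 (10.8%), again with overlapping intervals between neighbours. Kcnc2 was the exception, at 20% (17.4% to 22.9%, 217 reads). In SNT 1 the 6 genes lay between 31.2% (Kcnh7) and 42.2% (Kcnc2), and the intervals of all neighbours in that order overlapped. Such overlap does not show that neighbours had the same share. Genes further apart in that order could differ beyond counting error. The interval of Kcnh7 in SNT 1 lay wholly below those of Kcnab1, Kcnc1, Kcnd3 and Kcnc2. The highest share was 5.34 times the lowest in SNT 2, 3.76 times in SNT 3 and 1.35 times in SNT 1. Over the 9 single runs of SNT libraries, Kcnh7 had the lowest share in 6 and Kcnc2 the highest in 7. The remaining 2 runs, in which Kcnd3 or Kcnc1 was highest, were both runs of SNT 1.

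**Figure D2:**
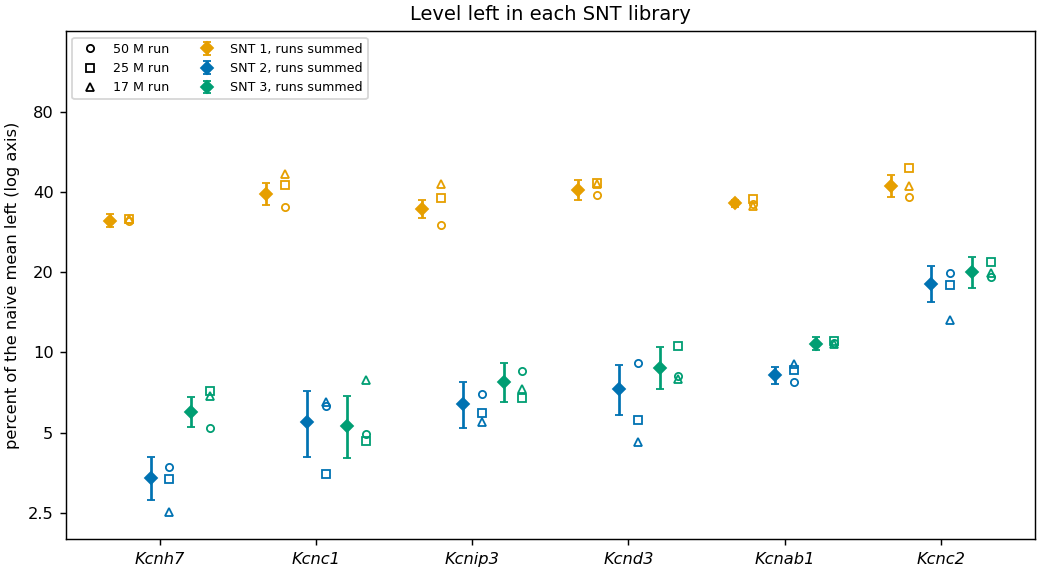
Percent of the naive mean left (log axis) for each gene in SNT 1, SNT 2 and SNT 3, with filled diamonds for the 3 runs summed, bars for the exact 95% Poisson interval and open symbols for single runs. In SNT 2 and SNT 3 Kcnc2 lies at 18.1% and 20%, above the other genes, whereas in SNT 1 the genes lie between 31.2% and 42.2%.

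Read depth changed these shares little relative to the spread between libraries. Kcnh7 had 13.3%, 14.1% and 13.7% left in the 50 M, 25 M and 17 M runs, and Kcnab1 had 18.2%, 19.1% and 18.4%. Kcnc2 had 25.9%, 29.6% and 25.1% left at these depths. Kcnc1, the gene with the fewest reads, had 15.5%, 16.8% and 20.4%, so that its place in the order by mean share moved from the third lowest at 50 M to the fifth at 17 M. Over all 3 SNT libraries, Kcnh7 had the lowest mean share and Kcnc2 the highest at each depth. Without SNT 1, Kcnc2 was again the highest at each depth, whereas the lowest was Kcnh7 at 50 M and 17 M and Kcnc1 at 25 M (4.08% against 5.25% for Kcnh7). Without SNT 1 the share of Kcnc2 was 16.6% to 19.9% over the depths, that of Kcnc1 4.08% to 7.21% and that of Kcnh7 4.46% to 5.25%.

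The position of SNT 1 was expressed as the percent of the way from the mean of SNT 2 and SNT 3 to the naive mean. At 50 M it was 23.4% for Kcnc2, 24.3% for Kcnip3, 27.8% for Kcnh7, 29.4% for Kcnab1, 31.3% for Kcnc1 and 33.01% for Kcnd3. For 1773 other genes that were at least 2-fold lower in SNT 2 and SNT 3, the median position was 37.2%, with quartiles of 30.3% and 44.6%. All 6 genes thus lay below this median at 50 M, and 4 of them below the lower quartile. Their selection on low SNT values can favour a low position, and the other genes were not matched to them in depth of loss. The comparison is therefore a description only. At 25 M and 17 M the 6 genes lay at 27.9% to 39.9% and 28.4% to 42.6%, on both sides of medians of 37.7% and 37.3%.

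Ratios between genes were then taken within each library, since these do not depend on the scaling of the library. The ratio of Kcnc2 to Kcnc1 at 50 M was 1.12, 0.878 and 1.07 in naive replicates 1 to 3 and 1.10, 3.19 and 3.93 in SNT replicates 1 to 3. In SNT 1 this ratio lay within the naive range, whereas in SNT 2 and SNT 3 it was on average 3.48 times the naive mean. At 25 M the values of SNT 1, 2 and 3 were 1.13, 5 and 4.60 against 0.892 to 1.07 in naive libraries, and at 17 M they were 0.977, 2.20 and 2.71 against 0.980 to 1.22. The Kv3 pair was thus shifted towards Kcnc2 in SNT 2 and SNT 3 at each depth. The mean ratio of these 2 libraries was 3.48, 4.86 and 2.27 times the naive mean at 50 M, 25 M and 17 M. In SNT 2 and SNT 3 it rested on 10 and 15 reads of Kcnc1 at 25 M, and on 10 and 14 at 17 M. The depths are runs of the same libraries and not independent.

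Of the 3 ratios within the A-type group, those to Kcnd3 overlapped between SNT and naive libraries at each depth. The ratio of Kcnip3 to Kcnd3, a Kv4 channel gene and the gene of its partner, was 1.34, 1.22 and 1.65 in naive and 1.07, 1.05 and 1.43 in SNT libraries at 50 M. The ratio of Kcnab1 to Kcnd3 was 7.62, 6.70 and 8.82 in naive and 7.00, 6.46 and 9.98 in SNT libraries. It reached 14.6 in the 17 M run of SNT 2, where Kcnd3 had 10 reads. The ratio of Kcnab1 to Kcnip3 was 5.69, 5.47 and 5.35 in naive and 6.56, 6.15 and 7 in SNT libraries at 50 M, with every SNT library above the naive libraries, whereas the groups overlapped at 25 M and 17 M. The Erg subunit lost more of its level than Kcnd3 did. The ratio of Kcnh7 to Kcnd3 was 3.00, 2.69 and 2.98 in naive and 2.29, 1.17 and 1.82 in SNT libraries at 50 M, and SNT libraries lay below naive libraries at all 3 depths.

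Of the 15 ratios that the 6 genes allow, 6 (50 M), 7 (25 M) and 3 (17 M) did not overlap between the groups. The ratios of Kcnd3 and of Kcnc2 to Kcnh7 were the 2 without overlap at every depth. The 15 ratios reuse the same 6 genes and are not independent. The share without overlap among pairs of other genes was not computed, so these counts are a description only. The ratio of Kcnc2 to Kcnh7 was 0.233 to 0.295 in naive libraries at 50 M and 0.331, 1.44 and 0.991 in SNT replicates 1 to 3. This was the widest shift at 50 M, with a mean in SNT of 3.40 times the naive mean, and 3.31 and 3.14 times at 25 M and 17 M. The least shift at 50 M was that of Kcnd3 to Kcnab1, at 1.01 times the naive mean.

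**Figure D3:**
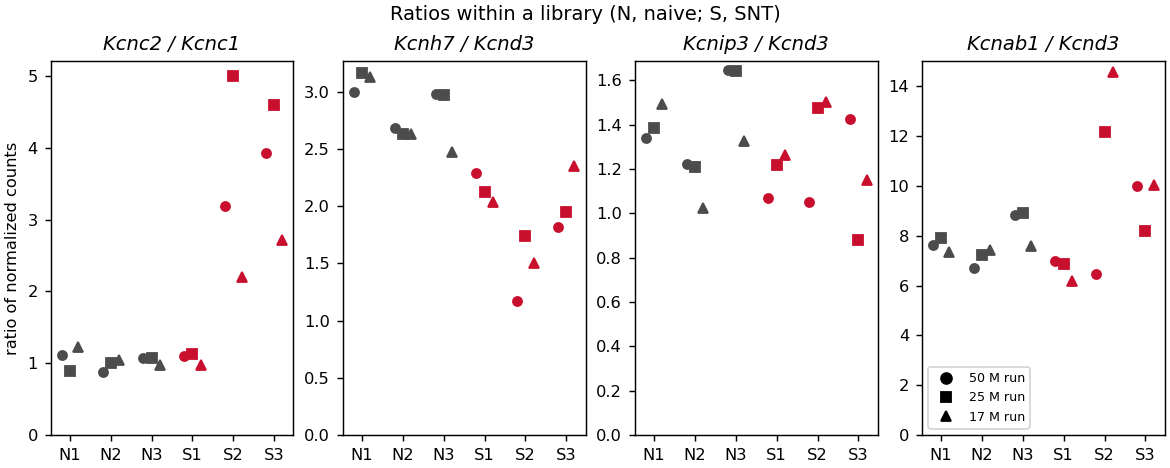
Ratios of normalized counts within each naive (N1 to N3) and SNT (S1 to S3) library for 4 pairs of genes, with a symbol for each run depth. Kcnc2 to Kcnc1 lies well above the naive values in S2 and S3 and near them in S1, Kcnh7 to Kcnd3 is lower in every SNT library, and the other two ratios overlap.

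Markers of the cell types of the ganglion moved with the groups. The summed level of 14 sensory neuron markers was 431089 to 495477 normalized counts in naive and 170435 to 306089 in SNT libraries at 50 M, that is, 49.3% of the naive mean. Of these markers 11 were called lower and 3 were not called by limma (FDR of 0.1). The 3 not called were Stmn2 (112.6% ± 16.6, SD, of the naive mean), Prph (82.9% ± 13.8) and Elavl3 (80.2% ± 22.3). Of all 17930 genes tested, 58.5% were called, 29.4% as lower and 29.2% as higher. The pan-neuronal gene Uchl1 was at 66.5% ± 11.3 (SD) of its naive mean, the synaptic gene Snap25 at 25.8% ± 17.2 and the heavy neurofilament gene Nefh at 27.6% ± 16.8. Without SNT 1, Snap25 was at 15.9% and Nefh at 18.01%. The defining neuronal markers were detected in every library. The sum of 7 leukocyte markers was 13004 to 13494 in naive and 26496 to 50602 in SNT libraries, with 6 called higher, among them Ptprc (418% ± 213). That of 6 fibroblast markers was 55804 to 80481 in naive and 111908 to 167094 in SNT libraries, with 5 called higher, including Col1a1 (237% ± 56.8), and 1 lower. For 8 Schwann or satellite glial markers the summed ranges overlapped, at 312875 to 558903 in naive and 369853 to 460752 in SNT libraries, with 3 called higher, 1 lower and 4 not called. Sox10 was at 189% ± 41.2 and Mbp at 80.04% ± 10.9. None of these markers was absent from a library, and the part of these shifts in the values of the potassium channel genes was not tested.

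Each of the 6 genes was also lower relative to the summed neuronal markers. Per 1000 normalized counts of these markers, Kcnh7 had 4.49, 4.63 and 3.86 in naive and 2.04, 0.440 and 0.501 in SNT libraries at 50 M. This left 22.99% ± 20.99 of the naive ratio for Kcnh7, 27.3% ± 22.9 for Kcnc1, 27.8% ± 15.5 for Kcnip3, 33.2% ± 18.4 for Kcnab1, 34.2% ± 21.9 for Kcnd3 and 51.7% ± 8.04 for Kcnc2. Kcnc2 varied least between SNT libraries on this scale, at 58.1%, 54.2% and 42.7% in SNT replicates 1 to 3. Without SNT 1 the values were 48.4% for Kcnc2 and 10.9% to 22.6% for the other genes. On this scale, too, the groups stayed apart for each of the 6 genes. Their selection on low SNT values favoured this outcome, so it is a description only. Nefh alone made up 43.3% to 44.4% of the marker sum in naive and 18.9% to 31.1% in SNT libraries. With Nefh left out, the sum of the other 13 markers was at 66.1% of the naive mean, and 17.9% (Kcnh7) to 38.3% (Kcnc2) of the ratio was left.

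**Figure D4:**
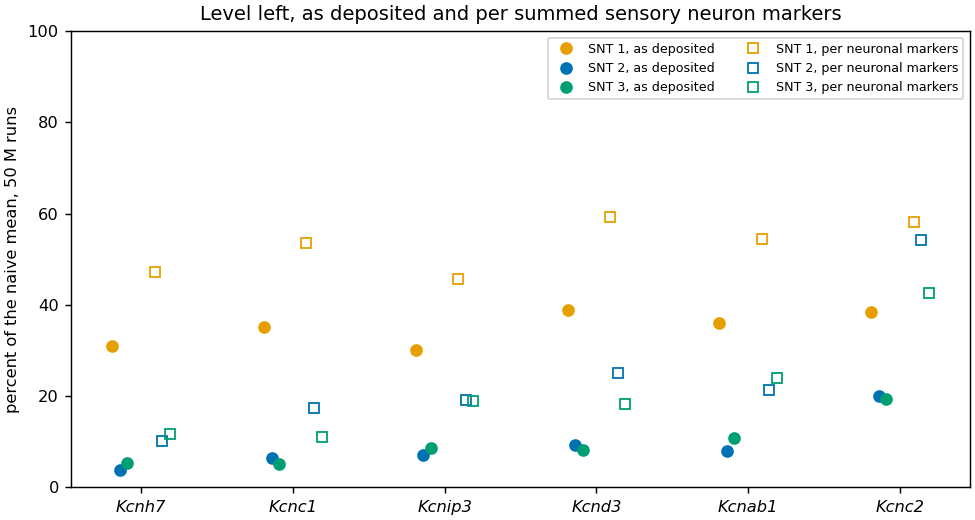
Percent of the naive mean left in the 50 M run of each SNT library, as deposited (filled circles) and per summed level of 14 sensory neuron markers (open squares). The values per neuronal markers are higher, and Kcnc2 lies at 42.7% to 58.1% in all 3 SNT libraries.

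Of 39 other voltage-gated channel genes listed, 11 could be matched to an identifier, and these 11 did not move as a block. At 50 M 5 of them were called lower in SNT, 3 were called higher and 3 were not called (limma, FDR of 0.1). Beside this, 29.4% of all genes were called lower and 29.2% higher. The 3 called higher were Scn3b, Tpcn1 and Tpcn2, described below. With libraries scaled to equal totals, 37.5% instead of 50.2% of all calls were lower and the log2 fold change of all genes had a median of 0.16 instead of 0.01, whereas the counts for the 11 channel genes stayed at 5 and 3. The median log2 fold change of the 11 genes was -0.16.

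The mean of Kcnh1, the only potassium channel gene among the 11 matched, lay near its naive level. Other potassium channel genes listed could not be matched, and this gene does not stand for them. Kcnh1, which encodes Eag1 and belongs to the same wider family as Kcnh7, had 674, 781 and 606 normalized counts in naive and 767, 513 and 674 in SNT libraries. Its mean in SNT was 94.8% ± 18.7 of the naive mean, with a fitted 95% interval of 71.4% to 124%. The groups overlapped and the gene was not called (adjusted p = 0.685, limma). This interval of a fitted fold change lay above the mean share left of each of the 6 genes. Their selection on low SNT values made that likely.

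Sodium channel genes moved in both directions. Scn1a, which encodes Nav1.1, had 3627, 3807 and 3101 normalized counts in naive and 1451, 292 and 418 in SNT libraries. Among the 11 matched channel genes it alone had a lower mean share left (20.5% ± 18.1) than Kcnc2 at 50 M, and its log2 fold change was -2.64 ± 0.54 (SE, adjusted p = 0.00864, limma). Scn8a, the gene of the nodal channel Nav1.6, was at 27.5% ± 20.4 and Scn9a, the gene of Nav1.7, at 42.4% ± 18.5 of the naive mean, and both were called lower (adjusted p = 0.0105 and 0.00971, limma). Without SNT 1 the mean of Scn1a was 10.1% and that of Scn8a 15.9%, both below the 19.6% of Kcnc2. At 25 M the mean of Scn8a (26.1%) was likewise below that of Kcnc2 (29.6%). The auxiliary subunit gene Scn3b rose to 177% ± 22.6 (adjusted p = 0.00458, limma), with 1842, 2046 and 1592 normalized counts in naive and 3358, 2774 and 3572 in SNT libraries.

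Among calcium channel genes, the auxiliary subunit gene Cacna2d2 was at 42.0% ± 23.7 and the L-type pore gene Cacna1d at 64.9% ± 21.5 of the naive mean, and both were called lower (adjusted p = 0.0207 and 0.0468, limma). The call for Cacna1d was lost without naive replicate 1, naive replicate 2 or SNT replicate 3 (adjusted p = 0.118, 0.126 and 0.119, limma). The N-type pore gene Cacna1b (97.1% ± 22.4) and Cacng4 (89.1% ± 5.89), listed here by its symbol, were not called. Their fitted 95% intervals were 70.2% to 132% and 72.9% to 109%. Tpcn1 (154% ± 28.7) and Tpcn2 (146% ± 9.60), which encode cation channels of endosomes and lysosomes, were called higher (adjusted p = 0.0148 and 0.00409, limma).

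Known partners of the subunits were also examined, and 2 of 4 listed could be matched. Psen2 encodes a protease subunit that binds the Kcnip3 product calsenilin, and Lgi1 encodes a secreted protein that associates with Kv1 channels and Kv-beta-1. Lgi1 was at 41.4% ± 15.9 of the naive mean and Psen2 at 61.6% ± 17.3, and both were called lower (adjusted p = 0.00734 and 0.0161, limma).

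**Figure D5:**
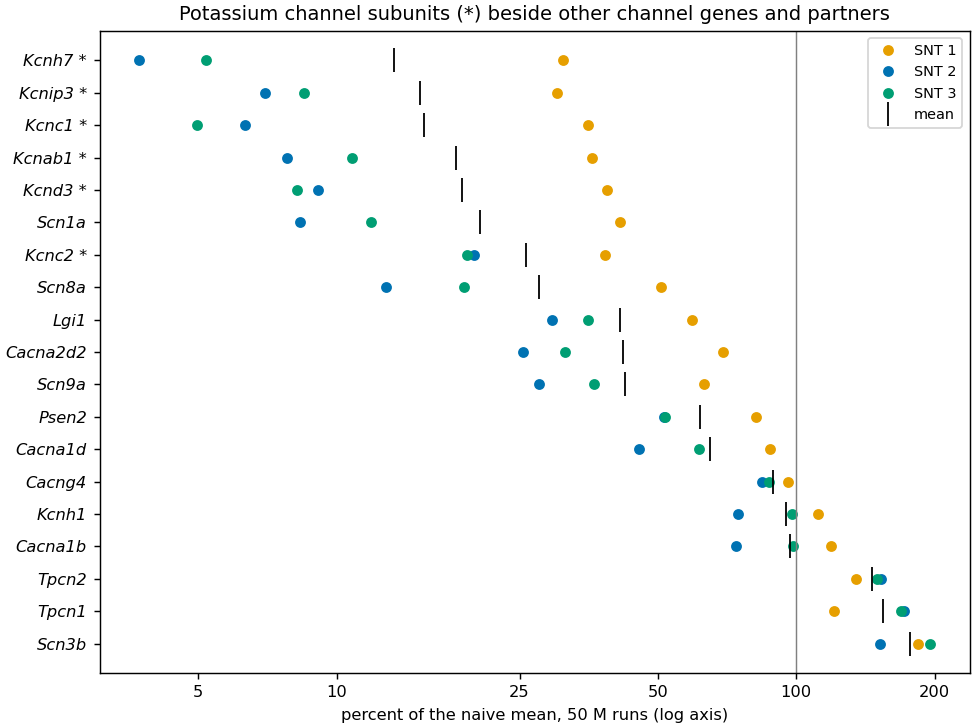
Percent of the naive mean (log axis) in the 50 M run of each SNT library for the 6 potassium channel subunit genes (asterisks), 11 other channel genes and 2 genes of known partners, ordered by mean. The genes with asterisks lie at a mean of 13.3% to 25.9%, Scn1a lies among them, and Kcnh1 lies at 94.8%.

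Genes whose values followed the mean of the 6 genes closely over the 6 libraries were sought among those with a symbol. Besides the 6, 14083 genes reached a mean of 20 normalized counts in the 50 M runs, and 1976 of these had a symbol. The rest were not searched and may hold closer genes. Likeness was measured as the Pearson correlation of log2(normalized count + 1), averaged over the 3 depths. The points fall into SNT and naive clusters with SNT 1 between them, so the coefficients describe this shared shape. Of the 1976 genes searched, 84 reached 0.99 or more. The first 10 were Rph3a, Susd4, Nefh, Dgkg, Frmpd1, Dok4, Scn1a, Gabbr2, Rap1gap2 and Arap2, with coefficients of 0.9986 to 0.9974. Rph3a, which encodes the synaptic vesicle protein rabphilin, was at 25.97% of the naive mean, or 15.1% without SNT 1. Gabbr2, which encodes a subunit of the GABA-B receptor, was at 31.3%, or 20.6% without SNT 1. Nefh and Scn1a, both named above, were the other genes of this list among the markers and channels examined.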

How the data were processed

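Poly(A) RNA of L5 DRG was sequenced from 3 SNT and 3 naive libraries in 3 runs each. The authors aligned short reads to Rn5 with Bowtie and counted those on the exons of Ensembl genes (Bowtie and DESeq are named in the submitters' processing notes, with no version given in the sources used here). The deposited signal values are these counts after division by DESeq size factors (normalized counts), in 1 table per depth. Reads that fit more than 1 place were dropped, so reads of near-identical paralogs are lost. Strand was not used, so antisense transcripts cannot be told apart from the gene.

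Every value in a column was taken as a multiple of its smallest positive value, which gave back whole reads (100% of values within 1e-06 of a read), and all 18 columns were used. Shares left are the normalized count of an SNT library over the naive mean. Other genes were tested in R 4.3.3 by limma 3.58.1, fitted to log2(normalized count + 1) under a trended variance prior, two-sided, over genes with reads in at least 3 libraries, with Benjamini-Hochberg adjustment at an FDR of 0.1. Fitted intervals are those of the log2 fold change on the percent scale. The fit was tested on simulated data with the same dispersion for every gene and no outlying library. That test does not cover a library placed as SNT 1 is. Alternatives were pseudocounts of 0.5 and 5, other filters, priors, scalings and depths, an FDR of 0.05, a replicate block, leaving out each library, edgeR 4.0.16 and DESeq2 1.42.0 on the recovered reads. Counting intervals are exact Poisson intervals.

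The 6 genes and all gene lists were chosen with earlier results of these data known. Named genes are the 6, every matched channel and partner gene, 7 example markers, the 3 sensory neuron markers not called, and the 10 symbol-bearing genes most alike. Symbols came from a supplementary list of the study, since the tables hold identifiers alone, and covered 1986 genes, so 28 channel genes listed were not analysed here. Some listed genes are not reported here and were left out of the list counts.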

Additional observations from a re-analysis of the deposited data

How the results depend on the processing

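The share of the naive level left was recomputed for each of the 6 genes at 25 M and 17 M, with the runs summed, with equal totals and with TMM scaling. No value moved by as much as the SD between SNT libraries. This SD is a wide limit, at 15.4 beside a share of 13.3% for Kcnh7, so the comparison could hardly find a move. For Kcnc1 the share left rose from 15.5% at 50 M to 20.4% at 17 M. With 1 library left out in turn, it ranged from 4.46% to 18.1% for Kcnh7, 5.64% to 20.8% for Kcnc1, 7.74% to 19.3% for Kcnip3, 8.65% to 24.0% for Kcnd3, 9.30% to 23.4% for Kcnab1 and 19.6% to 29.2% for Kcnc2, with every lowest value from the set without SNT 1. The count of all genes called at 50 M (10497) ranged from 8416 to 11346 with a library left out and was 8948 at an FDR of 0.05. With the replicate block it was 9459, and the channel family counts were 5 lower and 3 higher, as without it. Same-numbered libraries came from different animals, and their deviations from the group means correlated at 0.04, -0.30 and 0.15, so the numbers do not pair them.

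Of 247 values for 13 channel and partner genes under the alternatives, 236 kept direction and call, and 3 for Cacna1d lost the call. The 8 that changed sign belonged to genes that were not called. Cacna1b had a log2 fold change of 0.1050 with equal totals, 0.0381 at 17 M and -0.2164 to 0.1247 with a library left out (0.0437 without naive replicate 2). Cacng4 had 0.0697 at 17 M. Kcnh1 had 0.0734 with equal totals and -0.2164 to 0.0739 with a library left out. The cause was not tested. Low counts limit the order of loss, with 10 reads of Kcnc1 in the 17 M run of SNT 2.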
